A study of Mus musculus with 24 samples.

Results

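Expression in the thoracic aorta was compared between Klotho-/- mice (KO, 6 mice, numbered 11, 12, 13, 16, 31 and 32) and wild-type mice (WT, 6 mice, numbered 5, 9, 25, 26, 29 and 30), all of them on the high magnesium diet. These 12 libraries were chosen by their labels for diet and genotype, out of 24 in the series. All mice were of strain C57/BL6 and 8 weeks old, and the diet, with 0.48% magnesium by weight, was given from birth. The other 12 mice, 6 KO and 6 WT, had the minimal magnesium diet with 0.05% by weight, and they enter below only to set the genotype difference beside the one on the other diet. RNA was extracted with TRIzol, was not treated with DNase, and was sequenced per mouse without pooling. The labels do not say how the Klotho allele was made.

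Klotho is a membrane protein, made mainly in the kidney, that acts as the coreceptor through which the hormone FGF23 makes the kidney excrete phosphate. Mice that lack it accumulate phosphate, age early and deposit calcium phosphate in the media of their arteries, where smooth muscle cells can take on features of bone cells. Magnesium can slow the growth of calcium phosphate crystals, which is why dietary magnesium is studied in this model. The deposited tables identify genes by strain-specific identifiers, 0 of which could be paired with a symbol. The transcript of Klotho, the markers of smooth muscle and other cells, and genes of calcification are therefore not analysed here, and neither the genotype labels nor the tissue label had a check from them. Genes are described below by their level, length and behaviour across mice.

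Aortas of KO and WT mice on high magnesium differed at 5538 of 16741 genes tested (33.1%), with 2721 genes higher in KO (16.3% of those tested) and 2817 lower (16.8%). The test was the quasi-likelihood test of edgeR over all 24 libraries, and a gene was called below a Benjamini-Hochberg adjusted p of 0.05. In RNA of a whole tissue, fewer cells of a type and less RNA per cell cannot be told apart, and this holds for every value below. The higher genes had a median log2 fold change of 0.87 and the lower genes of -0.80, against 0.04 over all genes tested. Large differences were mostly upward when genes of all levels were counted together. More than 4-fold differences were found for 377 higher and 233 lower genes, more than 8-fold for 158 and 52, and more than 16-fold for 87 and 12. At the smaller sizes the directions were more even, with 1143 higher and 1023 lower genes past 2-fold. The direction past 2-fold depended on level. Under 10 CPM the higher share was the larger at each level, with 9.04% higher and 5.95% lower under 1 CPM. From 10 CPM upward the lower share was the larger at each level. At 10 to 30 CPM 3.93% were higher and 4.55% lower, and at 300 CPM or more 5.07% and 12.7%.

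Every KO mouse lay above every WT mouse at 1182 genes (7.06% of those tested), and 1128 of these were called. The reverse, every KO mouse below every WT mouse, held at 1461 genes (8.73%), of which 1422 were called. Complete presence against absence was rare. Of all 41012 genes in the tables, 2 had 0 counts in all WT mice and at least 10 in each KO mouse, and 0 had the opposite pattern. The called genes also made up a different part of each library, a description only, since they were chosen on these libraries. The 2721 higher genes took 22.9 ± 3.51% of the counts in KO (SD, n = 6) and 10.4 ± 0.464% in WT. The 2817 lower genes took 17.0 ± 3.42% in KO and 31.8 ± 6.23% in WT. The ranges did not overlap in either case.

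In a principal component analysis of log2 CPM (counts scaled by the size of each library) of the 12 libraries, the first component held 37.2% of the variance and separated the genotypes. WT mice scored from -60.2 to -41.1 on it and KO mice from 12.1 to 82.6. The second component, with 26.1%, followed the mouse numbers instead. WT mice 5 and 9 scored -22.5 and -23.7, below the WT mice numbered 25 to 30, which scored 10.7 to 38.0. KO mice 11, 12, 13 and 16 scored -86.3, -39.5, -14.0 and -50.6, below KO mice 31 and 32, which scored 75.2 and 52.2. No label says what the numbers stand for. They are spread unevenly, with 4 KO and 2 WT mice among the low numbers and 2 KO and 4 WT mice among the high ones, so the main results are also given within these sets of mice.

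**Figure D1:**
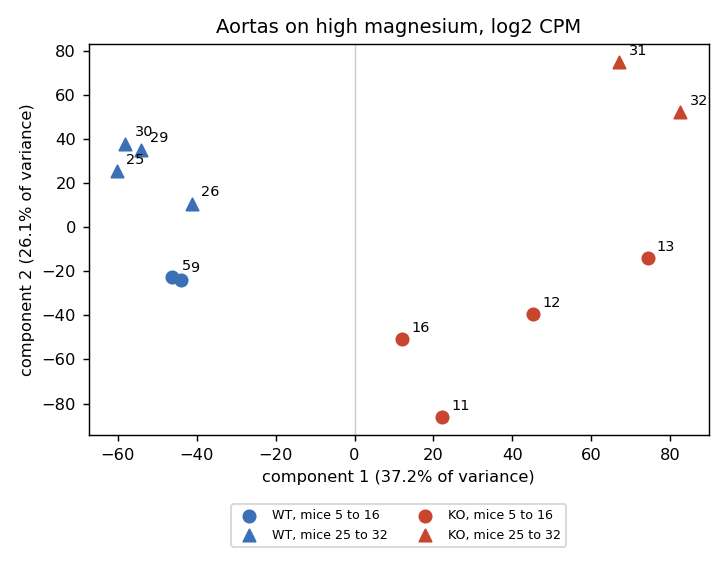
Scores of the 12 aortas on high magnesium on the first (horizontal) and second (vertical) principal components of log2 CPM, each point 1 mouse with its number. All 6 KO mice lie to the right of all 6 WT mice, and within each genotype the mice numbered 25 to 32 (triangles) lie above those numbered 5 to 16 (circles).

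The 4 genes described first were taken by 1 rule: called, no overlap between the genotypes, a mean of at least 10 CPM in the higher group, and the largest log2 fold changes, 2 in each direction. The rule left 786 higher and 1158 lower genes to choose from. The rule uses the same contrast, so the fold changes of these genes are extremes by choice. The interaction with diet contains that contrast, so its size and p-values for these genes are favoured by the choice too.

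MGP_C57BL6NJ_G0032329, a gene with 3 annotated transcripts, was nearly silent in WT aortas and abundant in every KO aorta. Its level was 720, 128, 213, 361, 52.8 and 86.3 CPM in KO mice 11, 12, 13, 16, 31 and 32. In WT mice 5, 9, 25, 26, 29 and 30 it was 1.16, 0.367, 0.578, 1.52, 0.579 and 0.320 CPM. The lowest KO mouse thus stood far above the highest WT mouse, and the KO mice differed widely among themselves, with mice 31 and 32 the lowest. The log2 fold change was 8.41 ± 0.90 (SE, edgeR adjusted p = 2.49e-06). On minimal magnesium the same gene stood at 7.75 ± 6.14 CPM in KO and 1.89 ± 2.14 CPM in WT (SD, n = 6 each), a log2 fold change of 2.02 (edgeR adjusted p = 0.134). The genotypes overlapped there through WT mouse 4 and KO mouse 20, which in earlier results of these data lay with the opposite genotype. Without these mice WT stood at 0.620 to 1.90 CPM and KO at 2.72 to 15.5 CPM, and the log2 fold change was 3.11 (edgeR adjusted p = 0.00399). Leaving out mice that go against their label favours a genotype difference on minimal magnesium. Such values, here and below, describe the remaining mice and are no fair test. The log2 fold change on high minus that on minimal magnesium was 6.39 ± 1.08 (SE, edgeR interaction, adjusted p = 0.000772). Without mice 4 and 20 it was 5.31 (adjusted p = 0.00185).

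MGP_C57BL6NJ_G0030547, also with 3 transcripts, showed the same split at a lower level. KO mice 11, 12, 13, 16, 31 and 32 had 12.2, 43.5, 19.6, 18.2, 6.69 and 11.5 CPM. WT mice 5, 9 and 30 had 0 counts, and WT mice 25, 26 and 29 had 0.193, 0.281 and 0.158 CPM. The 6 WT libraries together held 11 counts of this gene against 1295 in KO, so the WT level is close to what these depths can resolve: a count of 0 allows up to 3 counts, which is 0.158 to 0.289 CPM across the WT libraries. The log2 fold change was 7.20 ± 1.00 (SE, edgeR adjusted p = 2.95e-05). On minimal magnesium both genotypes held low levels, 3.50 ± 1.66 CPM in KO and 1.47 ± 2.01 CPM in WT, with a log2 fold change of 1.23 (edgeR adjusted p = 0.351), or 2.27 without mice 4 and 20 (adjusted p = 0.0341). The change of the genotype difference with diet was 5.97 (log2, edgeR interaction, adjusted p = 0.00326), and 4.93 without those mice (adjusted p = 0.00779).

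Of the 2 fallers, MGP_C57BL6NJ_G0018173 was the more even between mice. WT mice 5, 9, 25, 26, 29 and 30 had 11.5, 12.6, 25.5, 12.8, 19.5 and 31.3 CPM. KO mice 11, 12, 13, 16, 31 and 32 had 0.305, 0.797, 0.278, 0.232, 0.932 and 0.472 CPM. No KO mouse came near the lowest WT mouse. The log2 fold change was -5.17 ± 0.45 (SE, edgeR adjusted p = 3.29e-07). Over the pooled counts, 1741 in WT and 41 in KO, the WT level was 36.5 times that in KO (exact 95% interval 26.8 to 51.0, counting error only). On minimal magnesium KO mice had 8.80 ± 3.23 CPM beside 14.7 ± 7.33 CPM in WT (log2 fold change -0.74, edgeR adjusted p = 0.236). Without mice 4 and 20 that log2 fold change was -1.11 (edgeR adjusted p = 0.0233). The interaction was -4.43 (log2, edgeR adjusted p = 4.96e-05), and -4.08 without those mice (adjusted p = 3.72e-05). Since the gene was chosen on the high magnesium contrast, no dependence on diet is concluded from these p-values.

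MGP_C57BL6NJ_G0026611, a gene with 1 transcript of 6608 bases, rests on 1 library. WT mouse 5 had 94.1 CPM, while WT mice 9, 25, 26, 29 and 30 had 2.29, 0.449, 1.69, 0.473 and 1.34 CPM. The 6 KO libraries held 3 counts in all. The log2 fold change was -8.44 ± 1.89 (SE, edgeR adjusted p = 0.00181), and without mouse 5 it was -4.70 (adjusted p = 0.0139). Pooled counts put WT at 305 times KO (exact 95% interval 104 to 1483), and at 29.8 times (9.88 to 147) without mouse 5. The WT mean without mouse 5 was 1.25 CPM, below the level the rule asked for. On minimal magnesium it had 5.69 ± 7.41 CPM in WT and 0.535 ± 0.975 CPM in KO (SD, n = 6 each), a log2 fold change of -3.38 (edgeR adjusted p = 0.162), or -5.53 without mice 4 and 20 (adjusted p = 0.0162). The interaction was -5.05 (log2, edgeR adjusted p = 0.154) and -2.88 without those mice (adjusted p = 0.479), so a dependence on diet was not called for this gene. The direction on high magnesium held in every fit that tested the gene, but the gene was not called with limma-voom (adjusted p = 0.0585) or in mice 20 to 40 alone (adjusted p = 0.159).

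**Figure D2:**
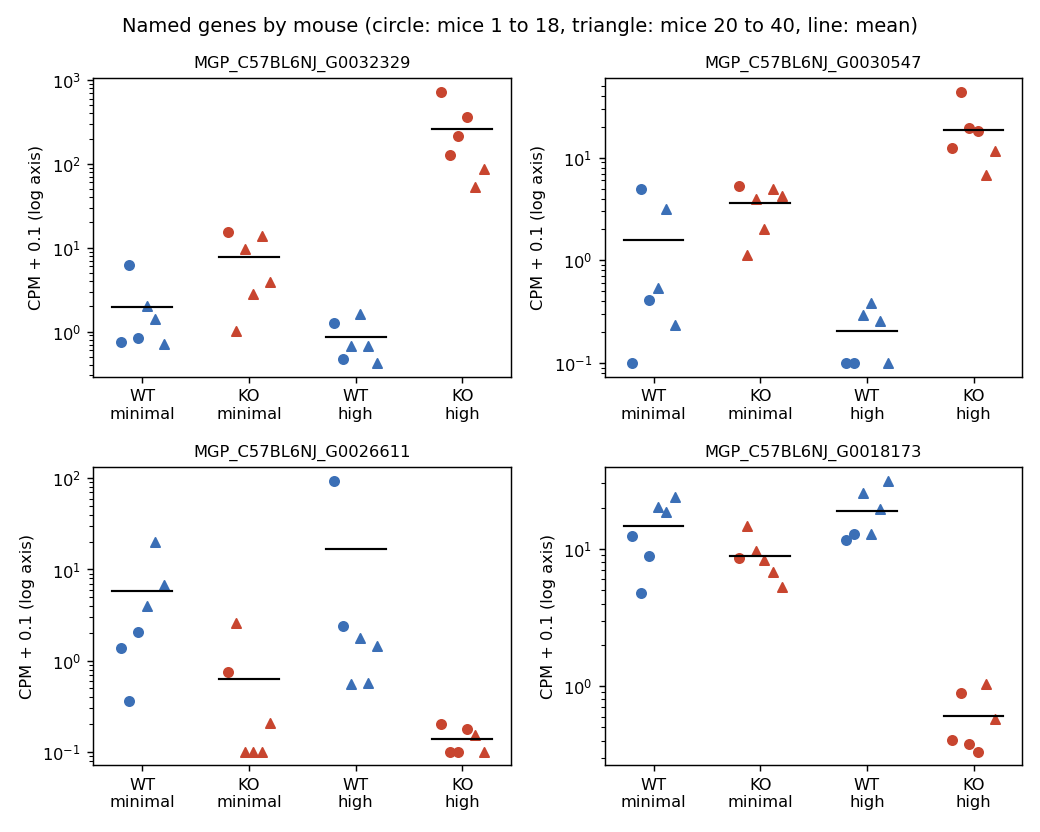
Level of the 4 named genes in each of the 24 mice, as CPM plus 0.1 on a log axis, in the 4 groups of genotype and diet, with the group mean as a line. On high magnesium (the right pair of groups in each panel) no KO mouse overlaps a WT mouse, whereas on minimal magnesium the genotypes overlap in each panel. In the panels of MGP_C57BL6NJ_G0032329 and MGP_C57BL6NJ_G0026611 that overlap comes through mice 4 and 20 alone.

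The higher and lower genes differed in level and in length. Over the 12 libraries lower genes were more abundant, with a median of 32.6 CPM against 20.3 CPM for higher genes and 18.5 CPM for all genes. In WT the medians were 40.6, 14.3 and 17.9 CPM in that order. In KO they were 23.8, 25.2 and 18.0 CPM, so there the lower genes were not the more abundant. Genes were called lower for standing higher in WT, so the order within each genotype is partly set by the call. The share of genes called lower rose with level, from 6.36% of genes under 1 CPM to 27.1% of genes at 300 CPM or more. The share called higher stayed between 14.6% and 17.2% for all levels from 1 CPM upward and was 10.0% below that. Lower genes also came from longer transcripts, with a median transcript length of 2210 bases against 1719 for higher genes and 1863 for all genes. Of genes whose mean transcript was under 500 bases, 20.4% were called higher and 8.79% lower. Of genes of 6000 bases or more, 10.9% were called higher and 22.3% lower. At each step in length between these, the higher share was smaller and the lower share larger than at the step before. The proportion of genes with a single annotated transcript was alike in the sets, 30.6% of higher and 29.0% of lower genes against 31.2% of all.

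**Figure D3:**
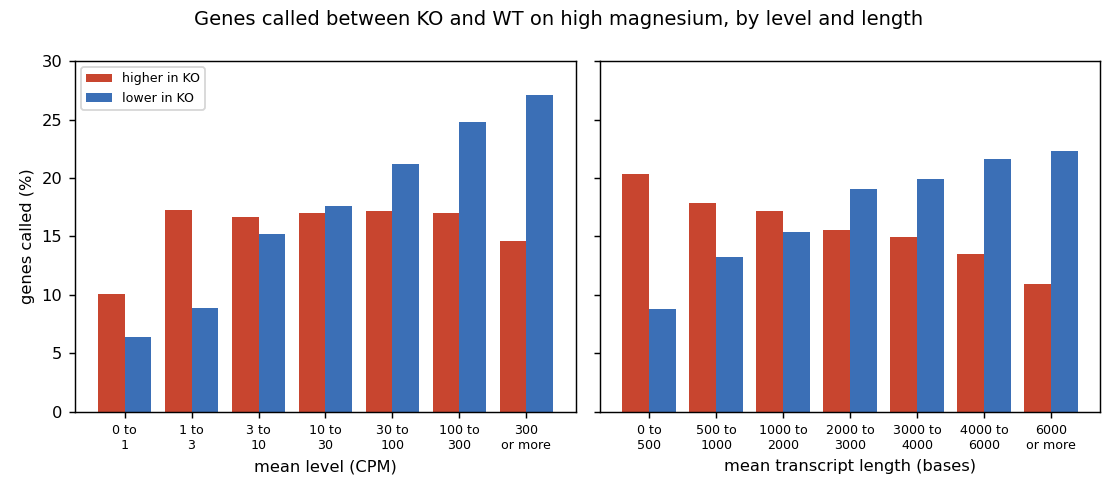
Percent of tested genes called higher (red) or lower (blue) in KO than in WT aortas on high magnesium, by mean level in CPM (left) and by mean transcript length in bases (right). The lower share climbs with both level and length, up to 27.1% and 22.3%, while the higher share declines with length from 20.4% to 10.9%.

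The libraries themselves differed along the same axis. The measure is computed from the same counts, so it shows the trend with length per library and is no independent result. The transcript length averaged over a library's counts was 2291 ± 142 bases in KO and 2530 ± 57.8 bases in WT (SD, n = 6 each, exact 2-sided permutation p = 0.00649, adjusted over 5 library measures 0.0162). In KO mice 11 to 16 it was 2149 to 2284 bases beside 2482 and 2539 bases in WT mice 5 and 9. In KO mice 31 and 32 it was 2501 and 2420 bases beside 2439 to 2585 bases in WT mice 25 to 30, where mouse 31 overlapped the WT range. With a term for this length in the edgeR fit of all libraries, 3448 genes were called, 1960 higher and 1488 lower, and 2288 of them were among the 5538. In the 12 libraries alone, with terms for both mouse number and this length, 2664 genes were called, 1134 higher and 1530 lower, and 1914 of them were among the 5538.

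KO libraries also held more genes. At an equal depth of 9947302 counts, 22074 ± 635 genes were detected in KO and 21261 ± 144 in WT (SD, n = 6 each, exact 2-sided permutation p = 0.00433, adjusted 0.0162). The KO range of 21480 to 22872 touched the WT range of 21078 to 21498 at its lower end. Within the low-numbered mice KO had 21480 to 22122 genes beside 21170 and 21236 in WT, and within the high-numbered mice 22804 and 22872 beside 21078 to 21498. Total counts ran from 9947302 to 15700533 in KO and from 12119594 to 18926675 in WT (exact 2-sided permutation, adjusted p = 0.0902). The 100 most abundant genes took 23.4 ± 4.29% of counts in KO and 25.7 ± 2.62% in WT (adjusted p = 0.357, exact permutation). The most abundant gene of each library took 2.59% in KO and 2.58% in WT on average (adjusted p = 0.985, exact permutation). It was not the same gene in every library. MGP_C57BL6NJ_G0018529 led in KO mice 12, 13, 16, 31 and 32 and in no WT mouse on this diet. MGP_C57BL6NJ_G0025807 led in KO mouse 11 and WT mouse 26. With 6 mice against 6 the smallest possible p was 0.00216.

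The genotype difference was present in each set of mice by number. In a fit of mice 1 to 18 alone, with 4 KO and 2 WT mice on high magnesium, 1072 of 17655 genes were called (6.07%), 439 higher and 633 lower. In a fit of mice 20 to 40 alone, with 2 KO and 4 WT mice, 4004 of 18032 were called (22.2%), 1847 higher and 2157 lower. These fits share no library. Of the genes higher in mice 1 to 18, 437 were tested in the other set, where 425 (97.3%) had the same sign and 272 (62.2%) were called higher. Of the genes lower there, 632 were tested, of which 608 (96.2%) had the same sign and 342 (54.1%) were called lower. In the opposite direction, 2 genes higher in mice 1 to 18 were called lower in mice 20 to 40. Starting from the larger list, 92.3% of the higher and 91.9% of the lower genes kept their sign in mice 1 to 18, and 15.1% and 16.0% were called there. Over all 17137 genes tested in both sets, 74.2% had the same sign.

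A direct test of whether the genotype difference itself differed between mice 25 to 32 and mice 5 to 16, in a fit of the 12 libraries, called 19 of 15264 genes (0.124%), 12 of them with a positive and 7 with a negative change. At an unadjusted p below 0.05 there were 2224. For MGP_C57BL6NJ_G0032329 the log2 fold change was 8.91 in the low-numbered and 6.50 in the high-numbered mice (edgeR, adjusted p of the difference 0.369). For MGP_C57BL6NJ_G0030547 it was 11.37 and 5.74 (adjusted p 0.326), where the first value depends on WT mice with 0 counts. For MGP_C57BL6NJ_G0018173 it was -4.86 and -4.95 (adjusted p 0.973), nearly the same size in both. MGP_C57BL6NJ_G0026611 was not tested in this fit.

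**Figure D4:**
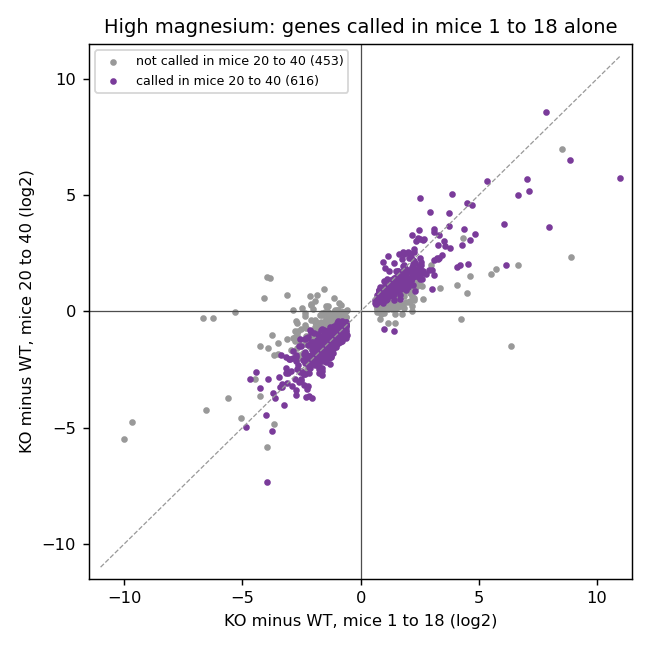
Log2 fold change between KO and WT on high magnesium in mice 1 to 18 (horizontal) and in mice 20 to 40 (vertical), for genes called in mice 1 to 18 alone; the 2 sets share no library. Most points lie in the quadrants of equal sign (425 of 437 higher and 608 of 632 lower genes), and purple points were called in both sets.

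Each mouse was also placed by genes called without it. A left-out mouse was counted on its own side of a gene when its level lay nearer to the mean of its own genotype. All 12 mice lay on the side of their label at most of these genes. WT mice did so at 77.2% to 92.1% of 4640 to 5178 genes, with mice 9 and 5 (77.2% and 79.3%) below the other 4. KO mice did so at 62.7% to 89.6% of 4681 to 5688 genes. Mouse 31 was lowest at 62.7%, followed by mouse 11 at 70.1%, and mouse 13 was highest at 89.6%. On this diet KO aortas also varied more among themselves. The median SD of a gene's log2 CPM was 0.402 over the 6 KO mice and 0.307 over the 6 WT mice, and the KO value was the larger at 71.6% of genes. Within the larger set of each genotype by mouse number the medians were 0.325 (KO mice 11, 12, 13 and 16) and 0.223 (WT mice 25, 26, 29 and 30). These KO libraries held 9947302 to 13244580 counts and these WT libraries 16163903 to 18926675, and the part of depth was not tested. On minimal magnesium the order was the reverse, with a median SD of 0.302 over 6 KO mice and 0.419 over 6 WT mice. There the WT group held 3 mice numbered 1 to 18 and included mouse 4. The KO group held 1 such mouse and included mouse 20. No value within sets by number was computed on that diet, and the part of these mice in the order was not tested.

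On minimal magnesium the same contrast called 138 of 16741 genes (0.824%), 117 higher and 21 lower in KO. Without mice 4 and 20, both on that diet, 4061 genes were called there. These mice were left out for going against their genotype, which favours a difference, so this count is no fair test. The genotype difference was called as differing between the diets at 1830 genes (10.9%) by the interaction term. Among them were 694 of the 2721 genes higher on high magnesium, all with a positive interaction, and 884 of the 2817 lower genes, all with a negative one. Both tests use the same 12 libraries, so these counts describe the genes and are no independent result. The interaction count itself was sensitive to single libraries: it was 2789 without mouse 31 and 3520 without mice 31 and 32. The groups were also uneven in mouse number. Mice 1 to 18 were 4 KO and 2 WT on high magnesium and 1 KO and 3 WT on minimal magnesium. Diet and mouse number are therefore not fully separate in this term. With a term for mouse number the interaction count was 1057. Mice 20 to 40 alone gave 397. Mice 1 to 18 hold 1 KO mouse on minimal magnesium, so their fit assumes that this mouse varies like the other groups, and its 0 interaction genes in edgeR (1603 at an unadjusted p below 0.05) are not read as a result.

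The minimal diet shares no mouse with the comparison on high magnesium, and the direction of the called genes there can be set beside it. Of the 2721 higher genes, 71.8% were also higher in KO on minimal magnesium, against 47.3% of all genes, with a median log2 fold change of 0.16. Of the 2817 lower genes, 68.5% were also lower, against 52.7% of all genes, with a median of -0.13. Higher genes past 4-fold had the same sign at 317 of 377 (84.1%) and a median of 0.72 on minimal magnesium, and 28.6% of them had a called interaction. Lower genes past 4-fold had the same sign at 74.7%, with a median of -0.62, and 51.1% of them had a called interaction. Without mice 4 and 20, which were picked for going against their genotype, the shares of equal sign were 80.7% of higher and 74.0% of lower genes, and 94.7% and 80.7% of those past 4-fold. Over all genes 49.4% were higher in KO in that fit. Of the higher genes, 16 (0.588%) were also called higher on minimal magnesium, a share near the 0.699% of all genes tested that were called higher there. Of the 2817 lower genes, 11 (0.390%) were called lower and 39 higher there, beside 21 lower and 117 higher (0.699%) over all 16741 genes. Without mice 4 and 20, 746 of the 2817 lower genes (26.5%) were called lower and 155 higher on minimal magnesium. Of the 2721 higher genes, 758 (27.9%) were called higher and 11 lower. Over the 16720 genes tested in both fits, 2276 (13.6%) were called higher and 1767 lower. Across genes the 2 sets of log2 fold changes had a Pearson r of 0.29 over 16741 genes, and 0.45 over 16720 without those mice. This is a description across genes, which are not independent replicates.

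Within genes, the mix of transcripts differed too. The share of a gene's TPM (an abundance scaled by transcript length and library) held by each transcript was tested with limma over the 24 libraries, for genes with at least 2 transcripts. Of 29269 transcripts in 8500 genes, 1036 (3.54%) were called, 487 with a higher and 549 with a lower share in KO, in 789 genes. Their median difference in size was 12.5 percentage points. A difference over 10 points was found for 676, over 20 for 232 and over 30 for 58. The genotypes did not overlap at 247 of the risers and 307 of the fallers. These were counted among called transcripts only, which were chosen on the same libraries, and the share over all transcripts tested was not counted. They are therefore a description of the calls. Of the 789 genes, 42.7% were also called for their total level, 134 higher and 203 lower, against 36.0% of all 8499 genes with both tests. Transcripts that lost share were the longer ones, with a median of 2132 bases against 1109 for those that gained and 1007 for all tested. In the 230 genes with a called transcript in each direction, the one that gained was the shorter in 141 (61.3%). The mean transcript length of the KO libraries was also shorter, as given above, and its part in these shares was not tested. These counts moved with the method: edgeR's test of transcript usage on estimated counts of the 12 libraries called 51 of 22980 transcripts, 38 of them among the 1036 with the same sign. Without mice 31 and 32, limma called 362.

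The transcript that gained most, by the same kind of rule (called, no overlap, mean gene TPM of at least 10), was MGP_C57BL6NJ_T0045630, of 2324 bases, in a gene with 2 transcripts. Its share was 34.9%, 82.5%, 35.9%, 44.3%, 65.0% and 44.0% in KO mice 11, 12, 13, 16, 31 and 32. In WT mice 5, 9, 25, 26, 29 and 30 it was 3.24%, 5.20%, 7.06%, 3.12%, 10.3% and 9.80%. The lowest KO mouse lay well above the highest WT mouse, and mouse 12 reached the highest value. The difference was 44.6 ± 5.66 percentage points (SE, limma adjusted p = 0.000154). Its partner MGP_C57BL6NJ_T0045631, of 2192 bases, lost the same 44.6 points by construction and was the transcript that fell most. The gene's total fell, from 41.2 ± 9.66 TPM in WT to 11.4 ± 1.78 TPM in KO (SD, n = 6 each, edgeR log2 fold change -1.69, adjusted p = 6.07e-06). On minimal magnesium the share of MGP_C57BL6NJ_T0045630 was 11.0 ± 4.16% in KO and 11.1 ± 6.65% in WT. In edgeR's test of transcript usage the gain was called (adjusted p = 0.000183) and the partner's loss was not (adjusted p = 0.193).

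MGP_C57BL6NJ_T0041313, of 2509 bases and 1 of 6 transcripts of its gene, lost share while the gene as a whole did not pass the test (log2 fold change 0.15, edgeR adjusted p = 0.457). It held 49.8%, 50.8%, 74.6%, 53.2%, 62.7% and 74.0% of the gene's TPM in WT mice 5, 9, 25, 26, 29 and 30. In KO mice 11, 12, 13, 16, 31 and 32 it held 7.34%, 21.5%, 27.5%, 12.2%, 45.6% and 28.3%. KO mouse 31 came closest to the WT range without entering it. The difference was -37.1 ± 5.51 percentage points (SE, limma adjusted p = 0.000719), and edgeR's test of transcript usage did not call it (adjusted p = 0.795). On minimal magnesium its share was 47.8 ± 4.37% in KO and 55.0 ± 7.86% in WT.

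MGP_C57BL6NJ_T0044362, of 322 bases and in a gene with 4 transcripts, rested on few reads. Its share was 50.4 ± 13.7% in KO and 8.63 ± 7.46% in WT (SD, n = 6 each), a gain of 41.8 ± 6.43 points (SE, limma adjusted p = 0.000968). The estimated counts behind it were 3.57 to 21.4 per KO library and 0 to 9.02 per WT library, since a short effective length turns few reads into many TPM. The gene's total fell, from 26.2 ± 7.99 TPM in WT to 12.0 ± 4.69 TPM in KO (SD, edgeR log2 fold change -1.84, adjusted p = 0.000691). On minimal magnesium the share was 21.6 ± 9.29% in KO and 20.4 ± 14.9% in WT, where it reached 44.9%. The transcript usage test of edgeR gave no value for it. Over all 8500 genes, the transcript with the largest mean TPM differed between KO and WT at 1250 (14.7%). How often it differs between groups of mice of the same genotype was not counted. In 10 of these 1250 genes, 1 transcript led in every KO mouse and another in every WT mouse.

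**Figure D5:**
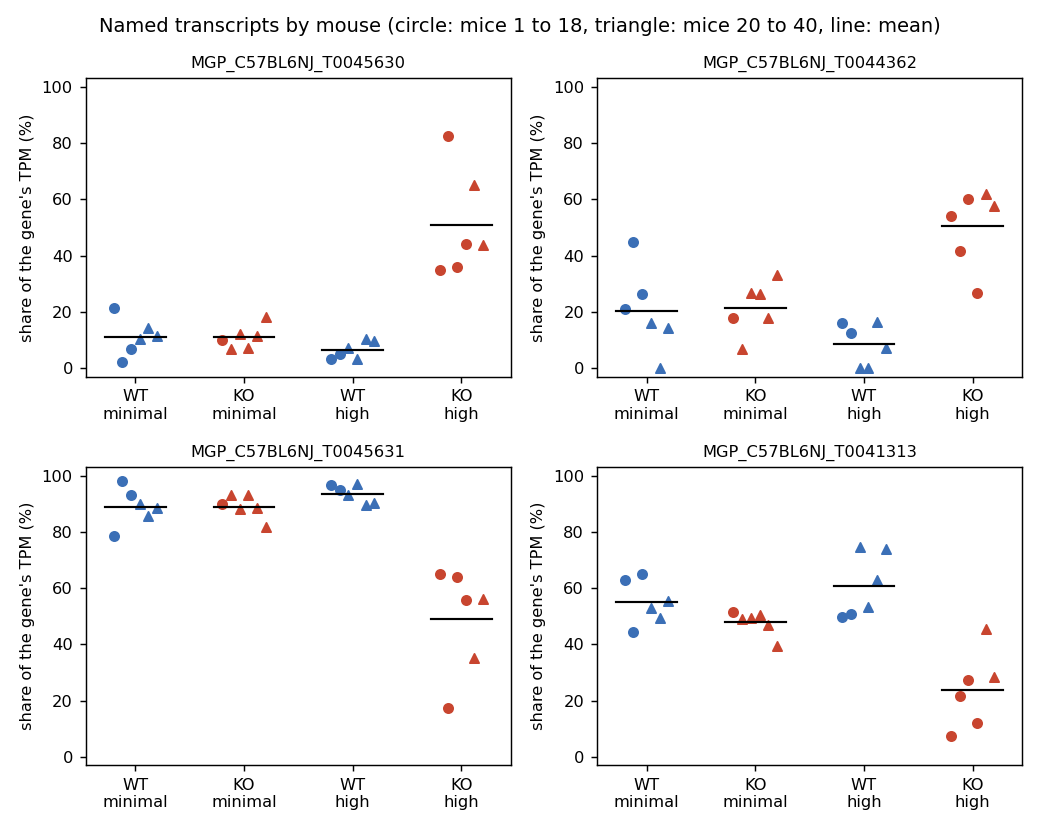
Share of its gene's TPM (percent) held by each named transcript in the 24 mice, in the 4 groups of genotype and diet, with the group mean as a line. In each panel the KO mice on high magnesium stand apart from the WT mice on the same diet, by 37.1 to 44.6 percentage points in the means, and the upper and lower left panels are the 2 transcripts of 1 gene.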

How the data were processed

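Per the file headers, each deposited table of 1 mouse gave a length, an effective length, TPM and an estimated count for 102919 transcripts of 41012 genes. Per the submitters' processing notes the authors used Salmon and FastQC and the build mm10; no version is given in the sources used here. The identifiers are those of the strain C57BL/6NJ. Such estimates split reads between similar transcripts by model, so genes with close copies are uncertain.

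The authors' estimated counts were summed per gene and rounded (totals changed by at most 0.00166%), filtered with filterByExpr, scaled by TMM and fitted in edgeR 4.0.16 (R 4.3.3) with 4 group means over 24 libraries. CPM values are on the TMM scale. The deposited TPM values were used as shares of their gene, in genes with a mean of at least 1 TPM and at least 0.5 in each library and for transcripts with a mean share of 5% to 95%, in limma 3.58.1. DESeq2 1.42.0, limma-voom and edgeR's diffSpliceDGE were alternatives. Library measures had exact permutation tests (scipy 1.17.1). Adjusted p is by Benjamini-Hochberg.

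The comparison, the gene lists, the tests and the sets of mice by number were chosen with earlier results of these data known. The rule for named genes took only 2 in each direction, since no identifier could be paired with a symbol, and the lists of genes and cell type markers were not used. Intervals and the limit of 3 counts cover counting error only. No replicate number was shared between groups.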

Additional observations from a re-analysis of the deposited data

Results flagged for a closer look

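Of 30 groups of 6 libraries tested for a single distant sample, 2 passed the critical gap share of 0.625, and chance alone marks about 1 in 20 groups. The level of MGP_C57BL6NJ_G0026611 in WT mouse 5 was 94.1 CPM, with a gap to the next WT mouse of 0.980 of the group's range. The level of MGP_C57BL6NJ_G0030547 in KO mouse 12 was 43.5 CPM, with a gap of 0.650 of the range.

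The genotype difference was called as differing between the diets, by the interaction term of edgeR, at 1830 genes. Among the named genes the difference on high minus that on minimal magnesium was 6.39 (log2) for MGP_C57BL6NJ_G0032329, 5.97 for MGP_C57BL6NJ_G0030547 and -4.43 for MGP_C57BL6NJ_G0018173. For MGP_C57BL6NJ_G0026611 it was -5.05 and was not called (edgeR adjusted p = 0.154). Between mice 25 to 32 and mice 5 to 16 the genotype difference on high magnesium differed at 19 genes.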

How the results depend on the processing

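The count of genes called on high magnesium (5538) was 1072 in mice 1 to 18 alone, 3448 with a term for each library's mean transcript length, and 2664 in the 12 libraries with terms for mouse number and length. The last 2 were added after seeing the data. The other alternatives gave 4004 to 6829, and leaving out each mouse on high magnesium in turn gave 4668 to 5719. The interaction count (1830) was 4252 with limma-voom, 1164 without a filter, 1057 with a mouse number term, 0 in mice 1 to 18, 397 in mice 20 to 40, 3520 without mice 31 and 32, and 497 with the length term. Leaving out each mouse on high magnesium gave 1226 to 2789, and single mice on minimal magnesium were not left out. Without mice 4 and 20 it was 1863, of which 1343 were among the 1830. On minimal magnesium (138) the count was 802 with DESeq2, 5531 with limma-voom, 57 without a filter, 37 with a mouse number term, 0 in mice 1 to 18 (694 at an unadjusted p below 0.05), 772 in mice 20 to 40, 215 without mice 31 and 32, 4061 without mice 4 and 20, and 339 with the length term. Mice 1 to 18 hold 1 KO mouse on minimal magnesium, assumed to vary like the other groups, so both values of 0 say little. Leaving out each mouse on high magnesium gave 29 to 166. The count of transcripts (1036) was 664 in the 12 libraries, 362 without mice 31 and 32, 1571 with a mouse number term and 51 with diffSpliceDGE. Leaving out each mouse on high magnesium gave 535 to 1026, lowest without mouse 32. The count was 605, 561, 539 and 553 without mice 5, 9, 26 and 30. The causes were not tested.

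The difference in total counts (KO minus WT) ran from -3989768 to -2628352 with each mouse left out, and passed the test without WT mouse 5 (exact permutation, adjusted p = 0.0433). The share of the top 100 genes turned to 0.0338 points without mice 31 and 32. The difference in the share of each library's own top gene ran from -0.424 to 0.483 points with each mouse left out, and changed sign in 6 of 12. Named genes and transcripts kept direction and call in the alternatives run, apart from MGP_C57BL6NJ_G0026611, which was not called with limma-voom (-4.32) or in mice 20 to 40 (-4.74), and from the transcript test of diffSpliceDGE. That gene was not tested in the fits of 12 libraries. No paired analysis was possible because mouse numbers are unique to a mouse and no number is shared between groups.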
